A study of Homo sapiens with 18 samples.

Results

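The 8 genes that encode ligands of EGFR and its ERBB relatives (AREG, EREG, EPGN, BTC, TGFA, HBEGF, EGF and NRG1) were followed in ATAC-seq data from 3 head and neck squamous carcinoma cell lines. Their members were the accessible regions that overlap the gene body, extended by 20 kb on both sides, in the GENCODE annotation on GRCh37 (hg19). This gave 83 of the 115087 regions measured. NRG1 held 55 of them, EGF 7, HBEGF 5, TGFA 5, EREG 4, AREG 3, BTC 3 and EPGN 1. These ligands are made as membrane proteins, and proteases of the ADAM family cut most of them free from the cell surface. AREG, EGF, TGFA and EPGN bind EGFR, HBEGF, BTC and EREG bind EGFR and ERBB4, and NRG1 binds ERBB3 and ERBB4. Squamous cells make several of them for their own use, so that EGFR, which cetuximab blocks by covering its ligand site, is fed by the cells that carry it.

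SCC1, SCC6 and SCC25, 3 established lines that respond to cetuximab, received the antibody at 100 nM or PBS for 5 days. ATAC-seq reads out open chromatin through the places where the Tn5 transposase can insert an adapter. SCC1, SCC6 and SCC25 cetuximab, SCC6 PBS and SCC25 PBS had 3 libraries each, and SCC1 PBS had 2, which made 17 libraries. Each line derives from 1 tumour, so a difference between lines is a difference between 3 cultures. The measurement was a signal per region, which is the number of reads multiplied by 1 scale factor per library. The libraries held 2194851 to 15017130 reads in regions (median per region 7 to 68), and between 7.14% and 28.8% of regions stood at 1 read, the lowest value of the table. The promoters of the squamous markers KRT5 and CDH1 were accessible in all libraries (signal of 15.7 to 135 and 42.4 to 151), while those of PTPRC, a leukocyte gene, and PECAM1, an endothelial gene, had no region in the table. Among the other squamous markers, the TP63 promoter ranged from 14.5 to 46.4 and the KRT14 promoter from 1.01 to 78.7. KRT14 was lower in untreated SCC6 than in untreated SCC1 (log2 difference of −3.95) and too low in SCC6 to be tested with cetuximab. The COL1A1 promoter, a fibroblast marker, ranged from 88.5 to 176.

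A region is named here by its gene and the distance in kb of its centre from the start of the gene, negative upstream. A log2 change is cetuximab against PBS on the scale of log2(signal + 1), which understates changes of low regions. Adjusted p-values are those of limma over all tested regions (Benjamini-Hochberg), and a region was called below 0.05. The 25% of regions with the lowest mean were left out of each fit, after which 40 of the 83 ligand regions were tested in all 8 comparisons, 69 in at least 1 and 14 in none.

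Sequences are shown for 4 regions that carry the results given first, which are the 2 HBEGF regions that fell, the EGF region that rose and the AREG promoter, whose letters are shared with a copy of the gene. They were read from the GRCh37 genome on the strand of the gene. The HBEGF −1.8 kb region (chr5:139727816-139728072, minus strand, 257 bases) lies upstream of HBEGF inside a long non-coding RNA gene, and HBEGF +1.7 kb (chr5:139724375-139724576, minus strand, 202 bases) in an intron. The EGF +67.7 kb region (chr4:110901548-110901841, plus strand, 294 bases) covers the start of an alternative EGF transcript. The AREG stretch is the part of its promoter region before the gene start (chr4:75310747-75310852, plus strand, 106 bases). Capitals mark AP-1 letters (TGANTCA, read on both strands) in the HBEGF and EGF sequences and CRE letters (TGACGTCA) in AREG.
HBEGF −1.8 kb: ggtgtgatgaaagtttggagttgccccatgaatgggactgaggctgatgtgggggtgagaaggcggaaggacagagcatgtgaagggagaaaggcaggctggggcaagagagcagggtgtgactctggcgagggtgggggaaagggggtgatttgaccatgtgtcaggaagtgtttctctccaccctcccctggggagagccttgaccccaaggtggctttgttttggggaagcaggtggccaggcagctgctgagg
HBEGF +1.7 kb: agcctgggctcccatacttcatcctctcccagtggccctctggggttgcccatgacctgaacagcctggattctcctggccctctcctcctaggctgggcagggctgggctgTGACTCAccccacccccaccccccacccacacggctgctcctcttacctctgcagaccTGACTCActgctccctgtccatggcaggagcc
EGF +67.7 kb: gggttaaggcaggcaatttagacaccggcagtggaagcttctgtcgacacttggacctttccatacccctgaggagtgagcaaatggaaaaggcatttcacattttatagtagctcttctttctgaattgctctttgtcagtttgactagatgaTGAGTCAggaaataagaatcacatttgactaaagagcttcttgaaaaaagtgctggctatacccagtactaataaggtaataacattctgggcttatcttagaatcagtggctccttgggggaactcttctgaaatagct
AREG promoter: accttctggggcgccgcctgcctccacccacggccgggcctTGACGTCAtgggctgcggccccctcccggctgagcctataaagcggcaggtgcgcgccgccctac

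In the sequences shown, HBEGF +1.7 kb held the AP-1 letters at positions 113 and 171, EGF +67.7 kb at position 155, and the AREG promoter the CRE letters at position 42, counted from 1 at the first base. None of the 5 motifs searched was found in HBEGF −1.8 kb. Within the central 300 bases of a region, TGANTCA was present in 28 of the 83 ligand regions (33.7%) and in 31.5% of all 115087 regions. The TFAP2 letters GCCNNNGGC were in 6 ligand regions and 11.8% of all, the TEAD letters GGAATGT in 5 and 7.53%, the CRE letters in 1 (AREG) and 0.50%, and the ETS letters CCGGAAGT in 0 and 0.990%. A match of letters describes the sequence and does not show that a factor binds there.

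HBEGF, on chr5:139712428-139726188 (minus strand), encodes heparin-binding EGF-like growth factor, a membrane-anchored ligand that ADAM proteases release. Its 5 regions did not move together under cetuximab. Of the 5, 2 were called in SCC1 (against 11.1% of all regions) and 4 in SCC6 (against 27.5%). In SCC25 0 were called (against 0.315%), and over all lines 2 (against 12.2%). By the calls, the upstream region at −1.8 kb fell in SCC1 and SCC6, and the intronic region at +1.7 kb fell in SCC6 and over all lines. The downstream region at +23.4 kb fell in SCC1 and rose in SCC6. The region at −11.2 kb rose in SCC6, with a rise in SCC1 that was not called, and the promoter was not called in any line. At HBEGF −1.8 kb, whose sequence is given above, the signal in SCC1 was 66.4 and 44.7 in the PBS libraries and 17.8, 15.6 and 9.39 in the cetuximab libraries. In SCC6 it was 71.3, 80.3 and 80.5 with PBS and 10.1, 13.9 and 20.5 with cetuximab. In SCC25 it was 57.7, 57.7 and 36.5 with PBS and 30.9, 48.8 and 49.6 with cetuximab. Treated and untreated libraries were apart in SCC1 and SCC6, a condition for naming the region there, and overlapped in SCC25. The log2 change was −1.91 ± 0.46 (SE, adjusted p = 0.00168) in SCC1, −2.36 ± 0.28 (SE, adjusted p = 3.69e-09) in SCC6 and −0.23 ± 0.25 (SE, adjusted p = 0.747) in SCC25, where its 95% interval was −0.73 to 0.27. Over all lines, with the line held fixed, it was −1.47 ± 0.27 (SE, adjusted p = 0.00131), and the effect differed between lines (interaction, adjusted p = 0.00349). Without SCC1 PBS replicate 1 the SCC1 call was lost (adjusted p = 0.225). The peak lists held a peak over this region in 3 of 3 SCC6 PBS libraries and in 0 of 3 SCC6 cetuximab libraries, in 3 of 3 and 1 of 3 of SCC25, and in 0 of 2 and 0 of 3 of SCC1. SCC25 cetuximab replicates 1 and 3 had 0 peaks in the whole HBEGF window. They had 24929 and 18642 peaks in all, against 81963, 55349 and 49094 in the SCC25 PBS libraries.

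HBEGF +1.7 kb, the intronic region with a pair of AP-1 letters and the highest signal per kb of the gene (192 per kb over all libraries), measured 78.1 and 56.9 with PBS and 41.9, 23.4 and 42.3 with cetuximab in SCC1. In SCC6 the values were 48.3, 47.5 and 41.3 with PBS and 23.2, 15.8 and 35.7 with cetuximab, and in SCC25 43.0, 36.8 and 34.8 with PBS and 30.9, 37.8 and 21.3 with cetuximab. The mean was lower with cetuximab in all 3 lines, a condition for naming a region by its change over all lines. The log2 change was −0.92 ± 0.28 (SE, adjusted p = 0.0122) in SCC6 and −0.73 ± 0.20 (SE, adjusted p = 0.0180) over all lines. It was not called in SCC1 (−0.93 ± 0.35, adjusted p = 0.0629) or in SCC25 (−0.37 ± 0.28, adjusted p = 0.599). The SCC6 call was lost without cetuximab replicate 2 (adjusted p = 0.129) and without PBS replicate 2 (adjusted p = 0.0566), and the call over all lines with reads thinned to the same number (adjusted p = 0.0520). HBEGF +23.4 kb (chr5:139702396-139703276, downstream of the gene) moved in opposite directions in SCC1 and SCC6. SCC1 gave 66.4 and 61.4 with PBS and 29.2, 40.9 and 21.9 with cetuximab, and SCC6 gave 105, 64.2 and 135 with PBS and 142, 169.9 and 141 with cetuximab. SCC25 gave 62.6, 55.5 and 60.2 with PBS and 63.3, 74.9 and 85.0 with cetuximab. In each of the 3 lines the treated and untreated libraries did not overlap, which in SCC1 was a condition for naming the region. The change was −1.08 ± 0.36 (SE, adjusted p = 0.0339) in SCC1, 0.63 ± 0.18 (SE, adjusted p = 0.0107) in SCC6 and 0.31 ± 0.20 (SE, adjusted p = 0.526) in SCC25, and the interaction had an adjusted p = 0.00337. The call in SCC1 was lost on leaving out any of cetuximab replicate 1, cetuximab replicate 3, PBS replicate 1 and PBS replicate 3 (adjusted p of 0.0797, 0.127, 0.338 and 0.211), and with each library centred on its median (adjusted p = 0.0990). The call in SCC6 was lost without cetuximab replicate 2 (adjusted p = 0.0583) and PBS replicate 2 (adjusted p = 0.147), and under the same centring (adjusted p = 0.0593).

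The HBEGF promoter region (chr5:139726055-139726508, −0.1 kb, over the start site) had mean signals of 83.5 ± 22.4 (SD, n = 2) with PBS and 81.1 ± 38.7 (SD, n = 3) with cetuximab in SCC1. In SCC6 the means were 73.3 ± 3.47 and 70.3 ± 10.1 (SD, n = 3 each), and in SCC25 62.2 ± 9.74 and 65.3 ± 10.8 (SD, n = 3 each). The treated and untreated means lay within 1 SD of each other in every line. HBEGF −11.2 kb (chr5:139737347-139737519), named after its values were seen, measured 23.0, 13.4 and 14.1 with PBS and 28.3, 42.7 and 29.4 with cetuximab in SCC6. Its log2 change there was 0.97 ± 0.32 (SE, adjusted p = 0.0191), a call that was lost without cetuximab replicate 2, PBS replicate 2 or PBS replicate 3 (adjusted p of 0.146, 0.0859 and 0.0611). It was also lost under centring, quantile normalization, DESeq2, thinning to equal reads and a fit of all libraries together (adjusted p of 0.0517, 0.0511, 0.0710, 0.249 and 0.0638). The rise of this region was not particular to SCC6, as its log2 change in SCC1 was 1.05, which was not called. In SCC6 the −1.8 kb and +1.7 kb regions of HBEGF were called lower and the −11.2 kb and +23.4 kb regions higher after cetuximab.

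**Figure D1:**
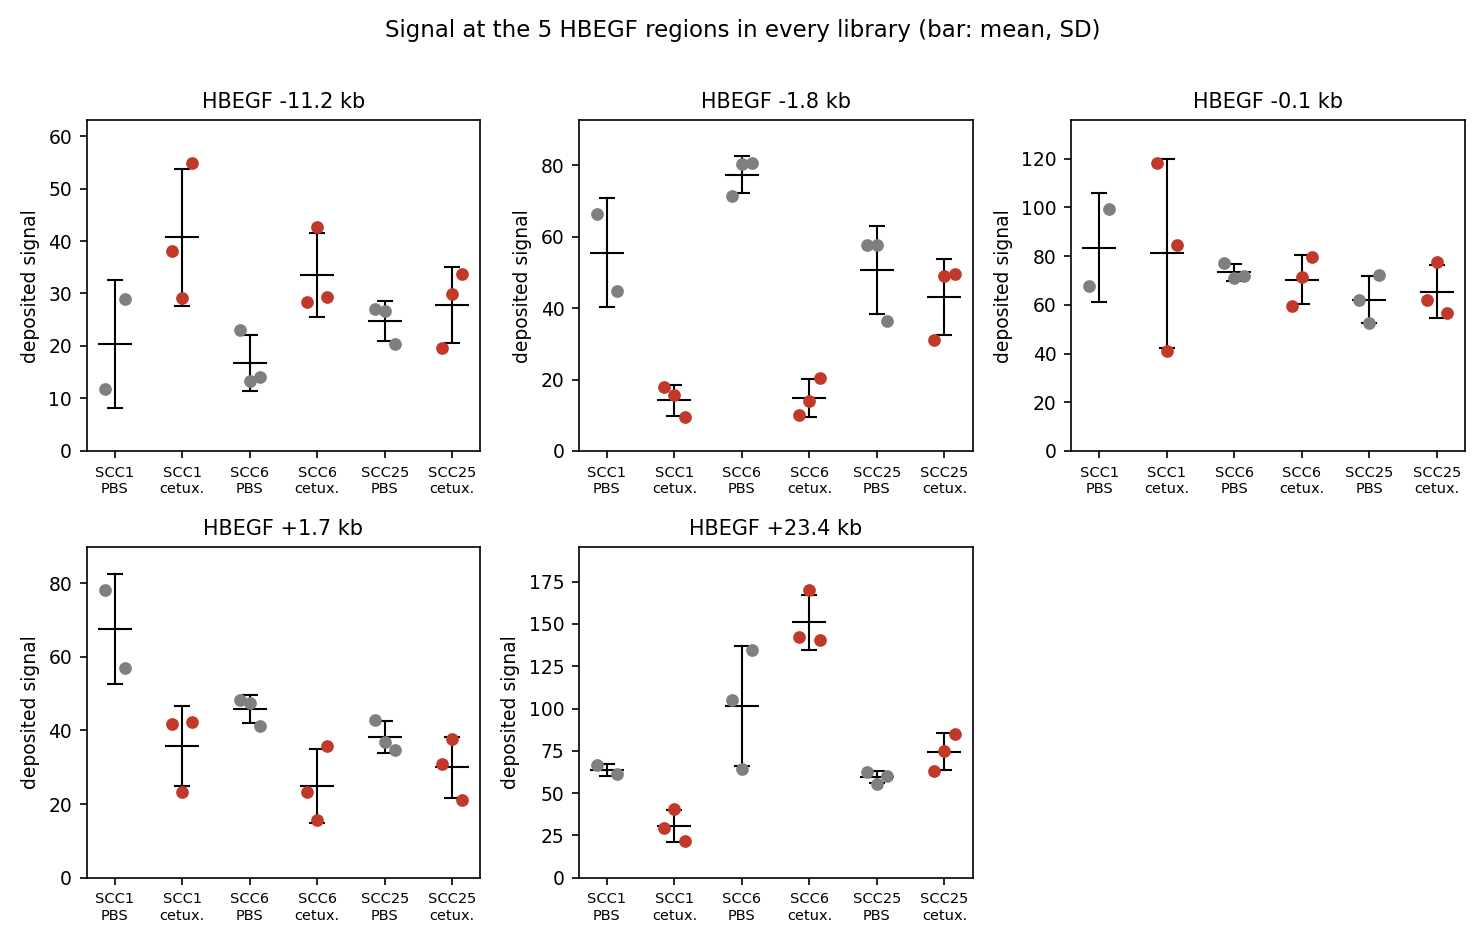
Deposited signal (linear axis from 0) at the 5 HBEGF regions in all 17 libraries, grey for PBS and red for cetuximab, with the mean and SD of each group as bars. At −1.8 kb all treated libraries of SCC1 and SCC6 lie below their PBS libraries while those of SCC25 overlap, and at the promoter (−0.1 kb) the groups of each line overlap.

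EGF, on chr4:110834039-110934922 (plus strand), encodes epidermal growth factor, the ligand that gave the receptor its name. Of its 7 regions, 5 were tested in SCC1, 5 in SCC6 and 4 over all lines. In SCC1 1 was called (against 11.1% of all regions), in SCC6 3 (against 27.5%) and over all lines 2 (against 12.2%). Under cetuximab 1 region rose in both SCC1 and SCC6. In SCC6 another region rose and 1 fell, and 1 region was lower over all lines. The region that rose in both lines, EGF +67.7 kb, covers the start of an alternative transcript inside the gene and holds the AP-1 letters shown above. In SCC1 it measured 20.8 and 5.58 with PBS and 35.5, 42.8 and 40.7 with cetuximab. In SCC6 it measured 3.62, 9.37 and 13.1 with PBS and 50.5, 23.2 and 31.4 with cetuximab, and in SCC25 14.3, 19.5 and 17.8 with PBS and 15.5, 21.5 and 23.0 with cetuximab. The groups were apart in SCC1 and SCC6, a condition for naming the region there, and overlapped in SCC25. The log2 change was 1.76 ± 0.47 (SE, adjusted p = 0.00465) in SCC1, 1.97 ± 0.40 (SE, adjusted p = 1.32e-04) in SCC6, 0.20 ± 0.36 (SE, adjusted p = 0.861) in SCC25 (95% interval −0.52 to 0.91) and 1.28 ± 0.31 (SE, adjusted p = 0.00984) over all lines. A difference between lines was not called (interaction, adjusted p = 0.0935). The SCC1 call rested on PBS replicate 3, without which the change was 0.89 (adjusted p = 0.390).

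EGF +32.5 kb (chr4:110866407-110866629, over a coding exon) fell in SCC6, from 13.3, 9.37 and 27.2 with PBS to 1.01, 4.64 and 5.29 with cetuximab, a log2 change of −1.96 ± 0.59 (SE, adjusted p = 0.00984). Without cetuximab replicate 1, whose value of 1.01 is 1 read, the adjusted p was 0.0533. The intronic EGF +34.8 kb (chr4:110868721-110868912), named after its values were seen, rose in SCC6 from 19.3, 14.1 and 17.4 to 49.5, 27.9 and 31.4 (1.02 ± 0.31, adjusted p = 0.0110). That call was lost without cetuximab replicate 1 (adjusted p = 0.113) and PBS replicate 2 (adjusted p = 0.0558). EGF +76.3 kb (chr4:110910177-110910597, intronic) was the most accessible region of the gene per kb (177) and had a peak in 17 of 17 libraries. Over all lines it was lower with cetuximab by a log2 of −0.43 ± 0.14 (SE, adjusted p = 0.0408), a call close to the threshold that was lost in 19 of 28 alternative settings, with adjusted p-values up to 0.146. The PBS and cetuximab means were 85.8 ± 9.26 and 62.6 ± 8.74 in SCC1, 67.6 ± 4.76 and 49.2 ± 13.9 in SCC6, and 103 ± 9.66 and 82.5 ± 18.4 in SCC25 (SD). The start site of the full-length EGF transcript was nearly closed in SCC1 and SCC6 and more open in SCC25. The region over it (chr4:110833869-110834074, −0.1 kb), named after its values were seen, had PBS values of 1.30 and 1.12 in SCC1, 3.62, 8.70 and 4.35 in SCC6 and 23.7, 23.1 and 17.0 in SCC25, and cetuximab values of 8.89, 1.95 and 1.56 in SCC1, 5.05, 0.928 and 6.94 in SCC6 and 19.7, 22.1 and 33.6 in SCC25. The values 1.30, 1.12, 1.95, 1.56 and 0.928 are each 1 read, and differ only by the scale factor of the library. EGF +55.2 kb (chr4:110888981-110889519), within 1 kb of a further annotated start, had the highest mean of the regions at EGF start sites, with PBS means of 39.9 ± 15.4 in SCC1, 56.4 ± 10.0 in SCC6 and 72.6 ± 7.37 in SCC25 (SD).

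EREG, AREG, EPGN and BTC lie together on chromosome 4. EREG, at chr4:75230862-75254466 (plus strand), encodes epiregulin, a ligand of low affinity and long action. Its promoter signal was lower after cetuximab in SCC6, and lower in SCC25 than in either of the other lines. The EREG promoter region (chr4:75230494-75231155, over the start site) measured 75.5 and 83.7 with PBS and 69.8, 54.5 and 48.5 with cetuximab in SCC1. In SCC6 it measured 90.6, 83.0 and 70.7 with PBS and 61.6, 44.6 and 56.2 with cetuximab, and in SCC25 28.3, 41.8 and 35.6 with PBS and 12.7, 27.4 and 44.3 with cetuximab. The log2 change was −0.59 ± 0.21 (SE, adjusted p = 0.0291) in SCC6 and −0.47 ± 0.30 (SE, adjusted p = 0.332) in SCC1. The SCC6 call was lost without cetuximab replicate 2, PBS replicate 1 or PBS replicate 2 (adjusted p of 0.156, 0.115 and 0.0966) and after removal of a trend with GC content (adjusted p = 0.142). The intronic EREG +9.6 kb (chr4:75240258-75240602), which holds 2 AP-1 matches, was the most accessible EREG region per kb (156), with PBS values of 83.3 and 111 in SCC1, 54.4, 47.5 and 51.1 in SCC6 and 32.4, 47.6 and 31.4 in SCC25. Its log2 change in SCC6 was −0.52 ± 0.25 (SE, adjusted p = 0.115), short of the threshold. EREG −19.6 kb (chr4:75211198-75211396), named after its values were seen, was open mainly in SCC6, with PBS values of 31.4, 19.4 and 37.0 there against 1.30 and 1.12 in SCC1 and 0.754, 0.721 and 0.848 in SCC25. The values of SCC1 and SCC25 are 1 or 2 reads each.

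BTC, at chr4:75669969-75719733 (minus strand), encodes betacellulin, which activates EGFR and ERBB4. Its promoter had the highest signal per kb of the promoters in this cluster (137 against 82.5 for EREG), and the lines differed more than the treatments. The BTC promoter region (chr4:75719091-75720004, +0.2 kb) measured 252 and 278 with PBS and 215, 214 and 166 with cetuximab in SCC1, 123, 113 and 114 with PBS and 75.8, 90.1 and 83.3 with cetuximab in SCC6, and 69.0, 74.3 and 62.8 with PBS and 61.9, 80.1 and 60.2 with cetuximab in SCC25. The signal was highest in SCC1 and lowest in SCC25. With cetuximab it fell by 0.49 on the log2 scale in SCC6 (SE 0.17, adjusted p = 0.0222), and in SCC1 the change was −0.43 ± 0.19 (SE, adjusted p = 0.131). The SCC6 call was lost without cetuximab replicate 1, PBS replicate 1 or PBS replicate 2 (adjusted p of 0.0748, 0.0739 and 0.0547) and after removal of the GC trend (0.236). With that trend removed the BTC promoter was called in SCC1 instead (log2 change −0.69, adjusted p = 0.00262). EPGN, at chr4:75174187-75182506 (plus strand), encodes epigen and had 1 region, EPGN +12.3 kb (chr4:75186287-75186638), downstream of the gene and with a peak in 16 of 17 libraries. Its PBS and cetuximab means were 55.4 ± 8.47 and 69.3 ± 13.0 in SCC1, 52.9 ± 2.46 and 52.9 ± 7.44 in SCC6, and 43.7 ± 5.66 and 32.1 ± 19.1 in SCC25 (SD), and it was not called in any line.

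AREG, at chr4:75310853-75320722 (plus strand), encodes amphiregulin, a main autocrine ligand of squamous cells. The table gave almost no reads over the gene itself. Its promoter region (chr4:75310747-75311003) stood at 1 read in 16 of 17 libraries and the region over a coding exon at +1.6 kb (chr4:75312388-75312506), named after its values were seen, in 11 of 17. Beside these values stands a property of the genome build: 93.0% of the 50-base words of the AREG body, and all those of both regions, occur a further time in GRCh37, in a copy at chr4:75460667-75493261 that was 99.6% identical over 32664 aligned bases. Reads from there map to 2 places, and the study removed reads of low mapping quality. The part of this in the low values was not tested. Whether the AREG promoter was open can therefore not be read from the table. The peak lists held a peak over the promoter in 2 of 17 libraries, 1 of SCC1 PBS and 1 of SCC6 PBS. Over +1.6 kb they held a peak in 2 libraries, both of SCC6 cetuximab. The peaks were called after the same removal of reads. AREG +28.2 kb (chr4:75338943-75339154), downstream and outside the repeated stretch, had PBS values of 35.1 and 58.1 in SCC1, 15.7, 14.1 and 26.1 in SCC6 and 16.2, 15.9 and 9.33 in SCC25, and cetuximab values of 35.5, 68.1 and 59.5 in SCC1, 22.2, 18.6 and 18.8 in SCC6 and 14.1, 16.9 and 5.31 in SCC25. Both SCC1 groups lay above all libraries of the other lines, and no change with cetuximab was called in any line.

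The untreated lines were compared with each other in 1 fit of the PBS libraries, so that the 3 pairs share libraries. The BTC promoter and AREG +28.2 kb were highest in SCC1, while the EREG promoter stood at like levels in SCC1 and SCC6 and lower in SCC25. For BTC the log2 difference was −1.18 ± 0.15 (SE, adjusted p = 4.69e-06) in SCC6 against SCC1, −1.94 ± 0.15 (SE, adjusted p = 8.25e-08) in SCC25 against SCC1 and −0.76 ± 0.13 (SE, adjusted p = 9.66e-05) in SCC25 against SCC6. For the EREG promoter it was −1.17 ± 0.22 (SE, adjusted p = 4.33e-04) in SCC25 against SCC1 and −1.20 ± 0.20 (SE, adjusted p = 6.43e-05) in SCC25 against SCC6. For AREG +28.2 kb it was −1.28 ± 0.40 (SE, adjusted p = 0.0121) in SCC6 against SCC1, −1.68 ± 0.40 (SE, adjusted p = 0.00274) in SCC25 against SCC1 and −0.39 ± 0.36 (SE, adjusted p = 0.344) in SCC25 against SCC6. The first of these was lost without SCC1 PBS replicate 3 (adjusted p = 0.137). The surroundings of these genes differed between the lines too. The median log2 difference of tested regions within 2 Mb outside the BTC window was −0.91 for SCC6 against SCC1, −1.07 for SCC25 against SCC1 and −0.29 for SCC25 against SCC6. Around EREG the same medians were −1.01, −1.01 and −0.10, and around AREG −0.93, −1.02 and −0.22. The flanks of BTC, EREG and AREG overlap, so these medians are not separate observations. Around HBEGF they were −0.25, −0.19 and 0.05, and around EGF 0.15, 0.43 and 0.27. In the cluster on chromosome 4 a copy number difference between lines and a difference in accessibility cannot be told apart. The EREG promoter itself had a log2 difference of 0.03 (adjusted p = 0.925) in SCC6 against SCC1, unlike its surroundings. The difference of SCC25 from SCC6 was larger at the EREG and BTC promoters than around them, and these contrasts were not tested.

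**Figure D2:**
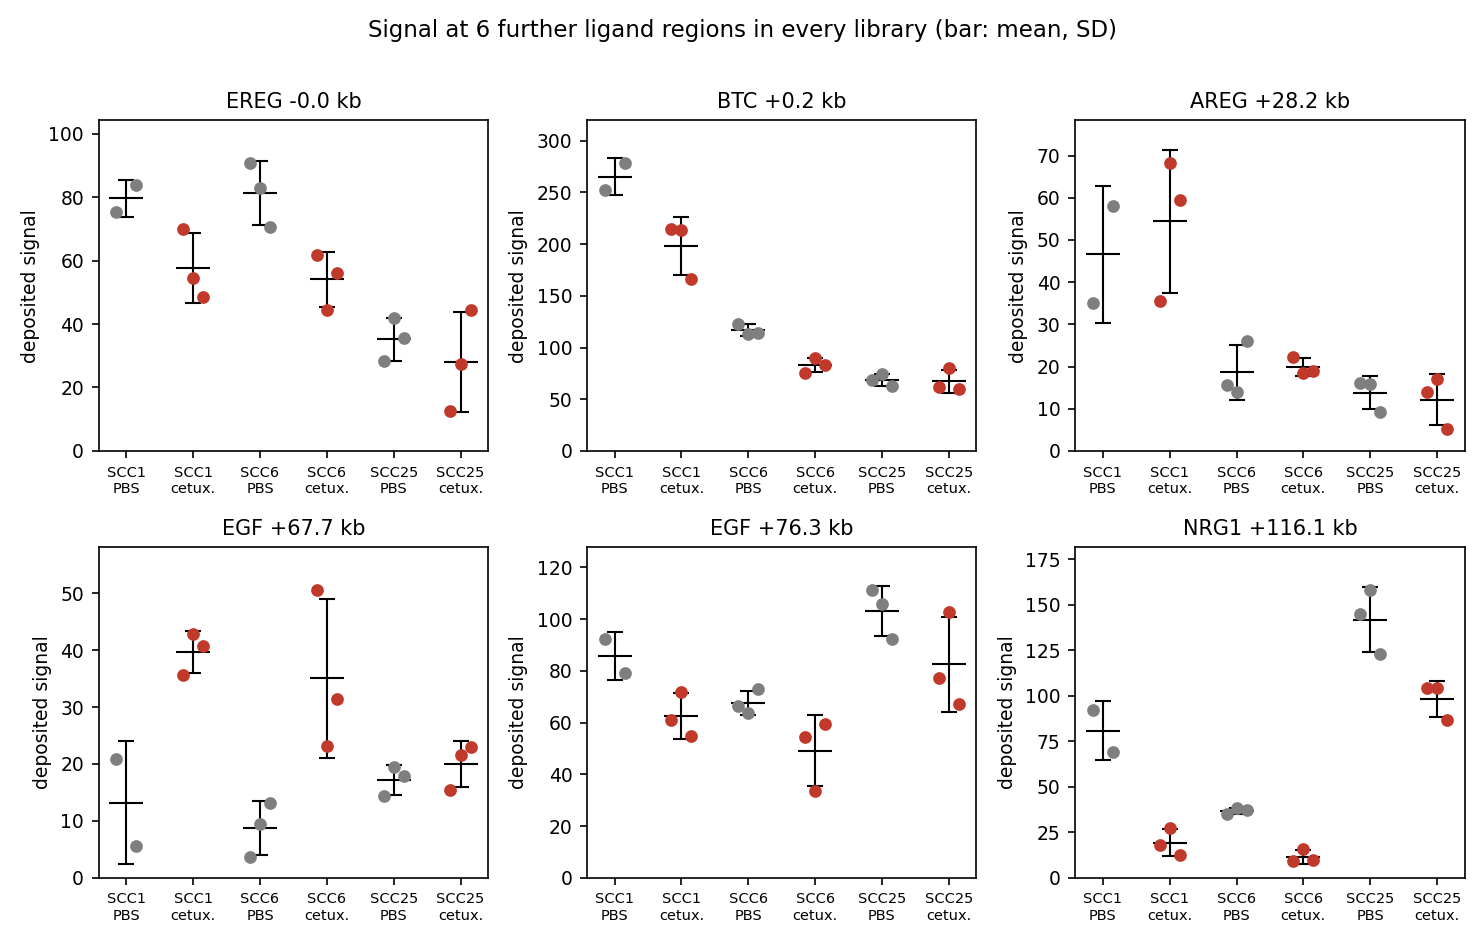
Deposited signal (linear axis from 0) at 6 further ligand regions in all 17 libraries, grey for PBS and red for cetuximab, with the mean and SD of each group as bars, where the EREG promoter is the panel EREG -0.0 kb and the BTC promoter BTC +0.2 kb. BTC and AREG +28.2 kb are highest in SCC1, EGF +67.7 kb is higher with cetuximab in SCC1 and SCC6, and NRG1 +116.1 kb is lower with cetuximab in all 3 lines.

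TGFA, at chr2:70674416-70781325 (minus strand), encodes transforming growth factor alpha, an EGFR ligand that many carcinomas make. All 5 TGFA regions stood at 1 read in all 17 libraries, so no change and no difference between lines could be tested. They belong to a run of 12 consecutive regions at 1 read in every library, from chr2:70751429-71222286 (470.858 kb), and 3251 regions of the table (2.82%) were at 1 read throughout. The peak lists of the same libraries showed open chromatin there. A peak lay over the TGFA promoter (chr2:70780894-70781564) in 14 of 17 libraries, with a fold enrichment over local background of 1.93 to 6.33 (median 4.42). The intronic TGFA +29.7 kb (chr2:70751429-70751831) had a peak in 15 libraries and TGFA −16.1 kb (chr2:70797308-70797471) in 5. TGFA −10.2 kb (chr2:70791446-70791644), named like +29.7 kb after its values were seen, had a peak in 6, which were the 3 PBS and the 3 cetuximab libraries of SCC6. A region with a peak in 14 libraries and 1 read in all of them is a contradiction between the deposited files. No 50-base word of the 5 TGFA regions occurs a further time in the build, unlike those of AREG, and the cause of the low values was not tested. For TGFA the peak lists are therefore the only readout, and they gave 0 to 6 peaks per library in the window (median 3).

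**Figure D3:**
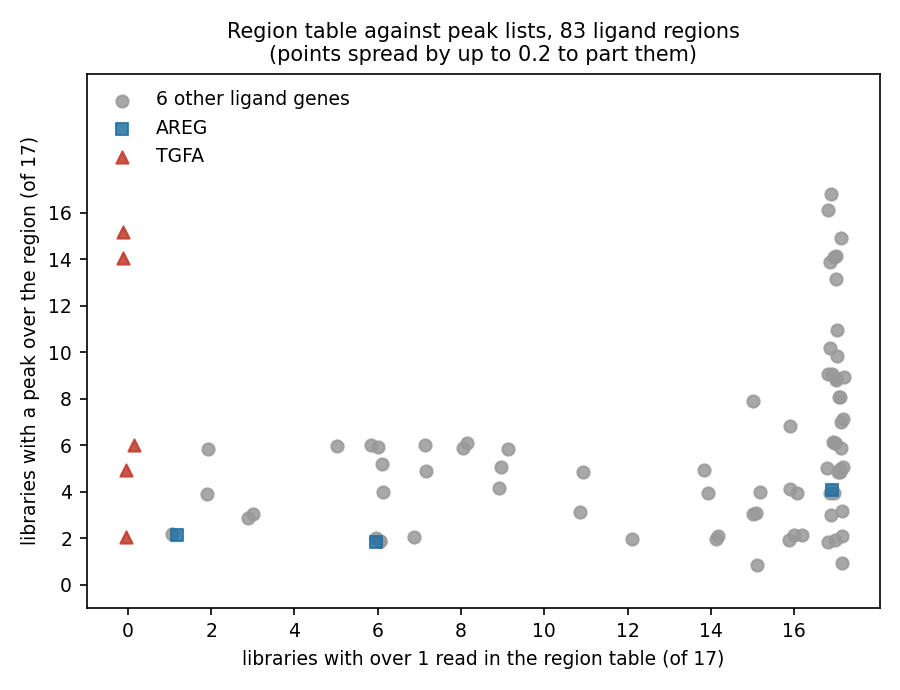
For each of the 83 ligand regions, the number of libraries (of 17) with over 1 read in the region table (x axis) against the number with a peak over the region (y axis). The 5 TGFA regions lie at 0 on the x axis with peaks in 2 to 15 libraries, and 2 of the 3 AREG regions have over 1 read in 1 and 6 libraries.

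NRG1, on chr8:31496738-32713184 (plus strand, 1216.447 kb), encodes neuregulin 1, which binds ERBB3 and ERBB4 and signals through their pairing with ERBB2. Of its 55 regions, 50 were intronic. With cetuximab, 4 of 37 tested regions fell and 0 rose in SCC1 (against 11.1% of all regions called), 7 rose and 2 fell of 41 in SCC6 (against 27.5%), and 0 of 35 were called in SCC25 (against 0.315%). The region with the largest fall in SCC1, at +116.1 kb, fell in SCC6 too. NRG1 +116.1 kb (chr8:31612490-31613195, intronic, 706 bases) measured 92.4 and 69.2 with PBS and 17.8, 27.3 and 12.5 with cetuximab in SCC1. In SCC6 it measured 35.0, 38.1 and 37.0 with PBS and 9.09, 15.8 and 9.59 with cetuximab, and in SCC25 145, 158 and 123 with PBS and 104, 104 and 86.8 with cetuximab. In every line all treated libraries lay below all untreated ones, which in SCC1 and SCC6 was a condition for naming the region. The log2 change was −2.07 ± 0.40 (SE, adjusted p = 3.54e-05) in SCC1, −1.63 ± 0.33 (SE, adjusted p = 1.51e-04) in SCC6, −0.52 ± 0.16 (SE, adjusted p = 0.151) in SCC25 and −1.36 ± 0.21 (SE, adjusted p = 3.62e-04) over all lines, and it differed between lines (interaction, adjusted p = 0.0203). Without SCC1 PBS replicate 1 the SCC1 call was lost (adjusted p = 0.0625), and the interaction was lost without SCC1 PBS replicate 1, SCC25 cetuximab replicate 2 or SCC25 PBS replicate 3 (adjusted p of 0.0694, 0.0512 and 0.0694).

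The 7 regions that rose in SCC6 lay between +588.2 and +1146.1 kb, all in introns. NRG1 +1146.1 kb (chr8:32642769-32642963) went from 4.83, 3.35 and 3.26 with PBS to 22.2, 18.6 and 20.8 with cetuximab (2.17 ± 0.49, adjusted p = 6.19e-04), NRG1 +991.6 kb (chr8:32488226-32488513) from 4.83, 4.01 and 14.1 to 28.3, 24.1 and 23.5 (1.78 ± 0.43, adjusted p = 0.00121), and NRG1 +670.9 kb (chr8:32167345-32167869, with 2 AP-1 matches) from 16.9, 18.1 and 22.8 to 47.5, 51.1 and 32.7 (1.13 ± 0.29, adjusted p = 0.00243). The treated libraries lay above the untreated ones at all 3, which at +1146.1 and +991.6 kb was a condition for naming them. In SCC1 NRG1 +670.9 kb measured 95.0 and 89.3 with PBS and 66.0, 70.1 and 78.2 with cetuximab, a log2 change of −0.37 ± 0.27 (SE, adjusted p = 0.441), and in SCC25 63.7, 57.7 and 72.1 with PBS and 71.7, 69.7 and 53.1 with cetuximab. Its response differed between lines (interaction, adjusted p = 0.00696). The other 4 regions that rose in SCC6 had log2 changes of 0.81 to 1.42, and the other region that fell there, at +194.5 kb, one of −1.06. In SCC1 the neighbours NRG1 +684.4 kb (chr8:32180995-32181186), the region of highest signal per kb in the gene (160.2), and NRG1 +692.5 kb (chr8:32189003-32189473), named after its values were seen, were both lower with cetuximab, by a log2 of −1.07 ± 0.37 (SE, adjusted p = 0.0388) and −1.04 ± 0.35 (SE, adjusted p = 0.0359). The first call was lost in 12 of 17 alternative settings, leaving out cetuximab replicate 1, PBS replicate 1 or PBS replicate 3 among them (adjusted p of 0.25, 0.240 and 0.325). The second was lost without each of cetuximab replicates 1 and 3 and PBS replicates 1 and 3, with adjusted p-values of 0.0824 to 0.412. Its interaction (adjusted p = 0.0253) was lost without SCC1 PBS replicate 3 (adjusted p = 0.181), SCC1 cetuximab replicate 3 (adjusted p = 0.0533) or SCC6 cetuximab replicate 1 (adjusted p = 0.0500).

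The strongest NRG1 start site lay inside the gene. NRG1 +909.4 kb (chr8:32405497-32406785, 1289 bases, over an exon) measured 259 and 208 with PBS in SCC1, 135, 142 and 137 in SCC6 and 145, 107 and 131 in SCC25. With cetuximab it measured 207, 195 and 228 in SCC1, 173, 192 and 159.7 in SCC6 and 153, 162 and 138 in SCC25. SCC1 was highest. The log2 difference was −0.74 ± 0.15 (SE, adjusted p = 5.51e-04) in SCC6 against SCC1 and −0.86 ± 0.15 (SE, adjusted p = 2.29e-04) in SCC25 against SCC1, and the change with cetuximab in SCC6 was 0.33 ± 0.13 (SE, adjusted p = 0.0506). With the GC trend removed that change was 0.61 and called (adjusted p = 7.70e-04), as it was in 5 of 18 alternative settings. Regions within 2 Mb of the NRG1 window had a median log2 difference of 0.07 in SCC6 against SCC1 and −0.43 in SCC25 against SCC1. In addition some NRG1 regions were open mainly in SCC6, at a share of the ligand regions near that of the whole table. In 7 of the 83 ligand regions (8.43%) every SCC6 library was over 4 times every library of the other lines, against 8.94% of all 115087 regions, and all 7 were in NRG1. No ligand region met this for SCC1 or SCC25, where 0.209% and 1.28% of all regions did. These 7, described after their values were seen, lay at +358.0, +376.7, +551.0, +927.6, +972.5, +1112.7 and +1171.1 kb. The SCC6 libraries reached signals of 10.9 to 103 there, and the other libraries had at most 7 reads. Of the 7 regions, 6 were about 200 bases wide, and the GC content of the 7 ran from 24.9% to 41.8%.

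**Figure D4:**
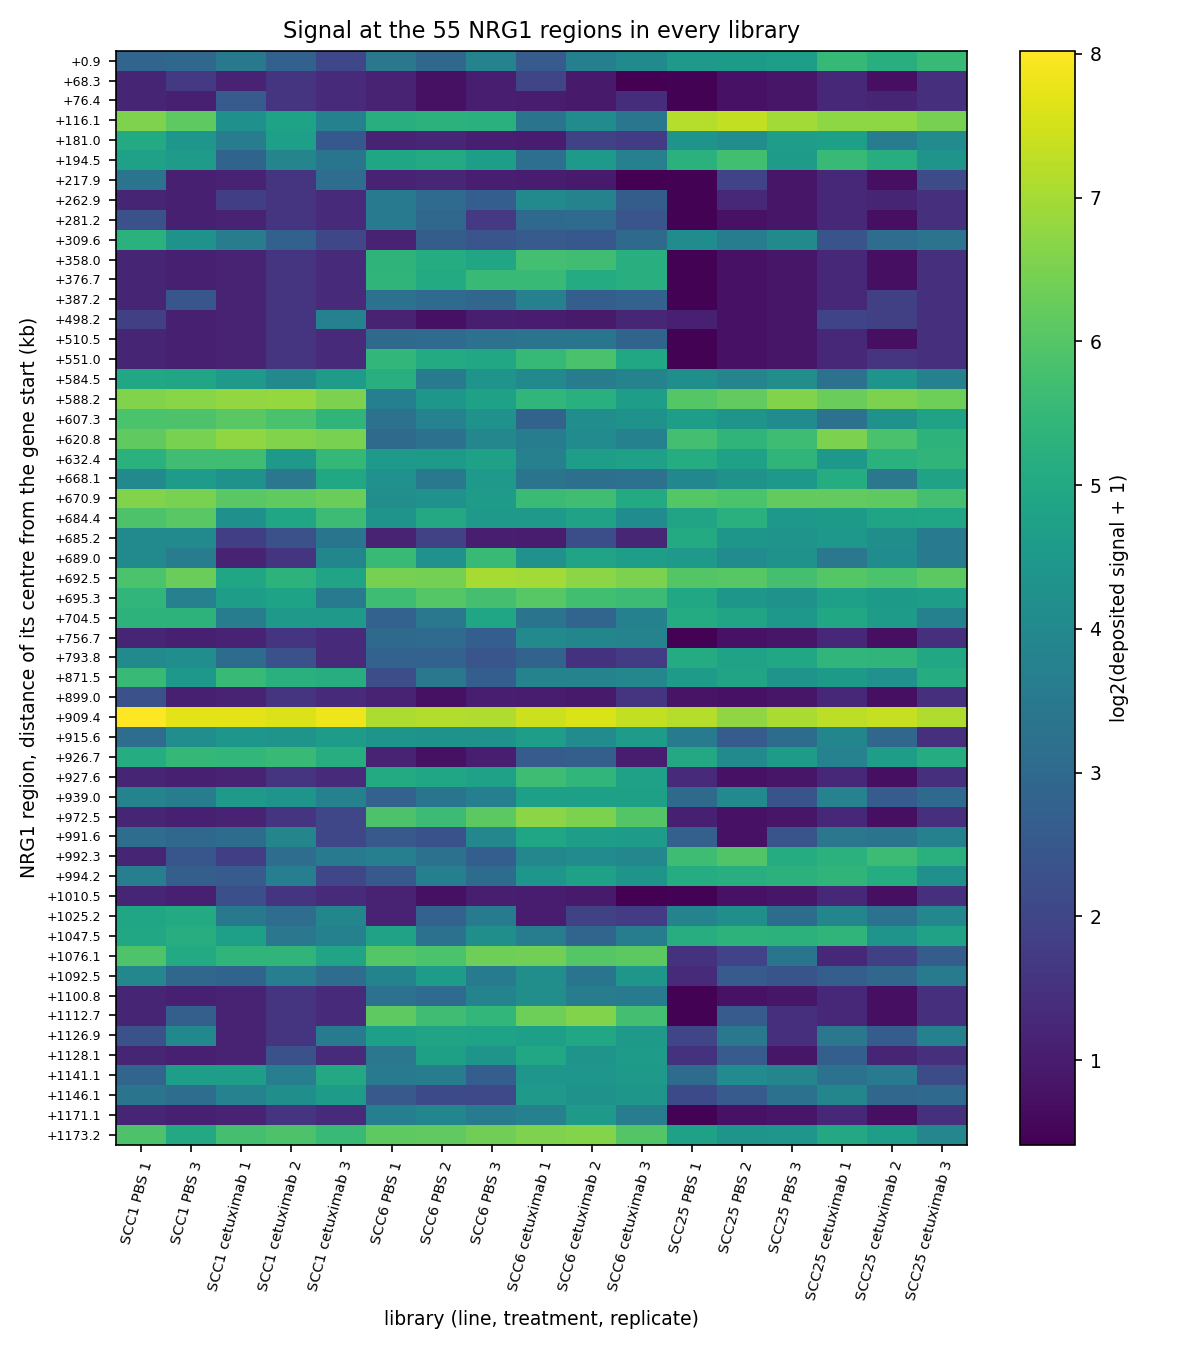
Heat map of log2(deposited signal + 1) at the 55 NRG1 regions (vertical axis, by distance in kb from the gene start) in 17 libraries (horizontal axis, PBS before cetuximab within each line). Bright bands in the SCC6 columns alone mark the 7 regions where every SCC6 library exceeds 4 times every other, and the band at +909.4 kb is bright in all libraries.

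Counted over the ligand genes with NRG1, cetuximab called regions at about the rate of the whole table. Without NRG1 the share called was higher than that of the whole table in SCC1, SCC6 and over all lines. In SCC1 7 of 55 tested ligand regions were called (12.7%), 1 higher and 6 lower, against 11.1% of all tested regions. The region that rose was EGF +67.7 kb, and those that fell were HBEGF −1.8 kb and +23.4 kb and NRG1 +116.1, +309.6, +684.4 and +692.5 kb. The median log2 change was −0.28 over the ligand regions and −0.09 over all. In SCC6 it was 18 of 59 (30.5%), 11 higher and 7 lower, against 27.5%, with medians of 0.13 and 0.11. In SCC25 it was 0 of 53 against 0.315%, with medians of −0.04 and −0.08. Of the SCC25 regions 3 had an unadjusted p under 0.05, and edgeR and DESeq2 on recovered reads called 0 as well, with 5 and 4 at an unadjusted p under 0.05. Over all lines 6 of 51 were called, 1 higher and 5 lower, against 12.2%. EGF +67.7 kb was the higher one, and HBEGF −1.8 kb and +1.7 kb, EGF +76.3 kb and NRG1 +116.1 and +194.5 kb were the lower ones. For the interaction 5 of 51 were called (9.80%) against 13.2%. Without NRG1, 3 of 18 were called in SCC1, 9 of 18 in SCC6 (4 higher and 5 lower), 0 of 18 in SCC25 and 4 of 16 over all lines. These are descriptions of the list, whose members were not tested as a set. The scale of each library bears on the directions. When the libraries were centred on their medians, the median change over all regions shifted by 0.21 in SCC1, −0.19 in SCC6 and 0.12 in SCC25, and the share of higher calls went from 41.1% to 67.3% in SCC1, from 61.5% to 38.0% in SCC6, from 12.9% to 58.1% in SCC25 and from 42.2% to 51.3% over all lines. Under that centring 4 ligand regions were called in SCC1, 2 higher and 2 lower, 16 in SCC6, 7 higher and 9 lower, and 6 over all lines, 3 higher and 3 lower. Over all regions the calls went from 9614 to 10773 in SCC1, from 23774 to 26629 in SCC6 and from 10511 to 9952 over all lines. None of the 46 changes and line differences given here for single ligand regions (the interactions, which have no direction, left aside) turned its direction under centring, quantile normalization or any other alternative.

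**Figure D5:**
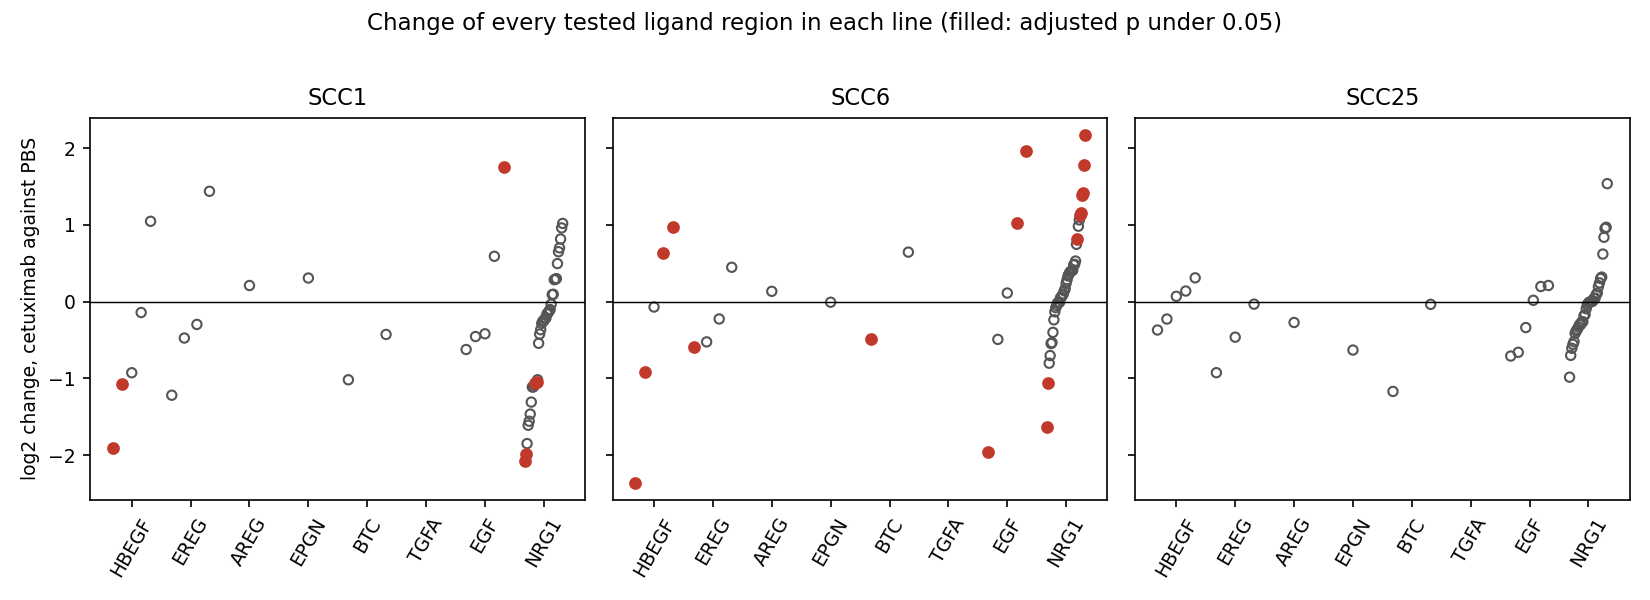
Log2 change of every tested ligand region, cetuximab against PBS, by gene in SCC1, SCC6 and SCC25 (filled red points were called at an adjusted p under 0.05, open points were not). HBEGF −1.8 kb and NRG1 +116.1 kb are among the lowest points in SCC1 and SCC6, and SCC25 has no filled point, while TGFA has no point in any panel.

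Between the untreated lines, in SCC6 against SCC1, 35 of 54 ligand regions were called, 14 higher and 21 lower, against 61.2% of all regions. In SCC25 against SCC1 it was 16 of 54 (29.6%), 6 higher and 10 lower, against 51.3%. In SCC25 against SCC6 it was 34 of 54, 17 in each direction, against 68.7%. Centring moved the all-region median by −0.34 for SCC6 against SCC1 and by −0.49 for SCC25 against SCC1, and the share of higher calls from 50.2% to 37.9% and from 55.0% to 31.9%. For SCC25 against SCC1 it raised the number of ligand regions called to 31, 4 higher and 27 lower, and for SCC6 against SCC1 it gave 32, 8 higher and 24 lower. Over all regions the calls went from 44291 to 54264 in the first comparison and from 52827 to 57235 in the second. The peak lists gave the same regions another readout. A peak in at least 2 libraries of the line lay over 22 of the 83 ligand regions in SCC1, 60 in SCC6 and 36 in SCC25, and these numbers move with depth, which was lowest in SCC1 (2194851 to 4171650 reads in regions) and reached 15017130 in SCC6.

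The receptors and regulators of the pathway were read at their promoters. Of 19 genes 17 had a promoter region. In SCC1 6 of 17 rose with cetuximab and 0 fell (against 11.1% of all regions called). In SCC6 1 rose and 1 fell of 16 tested (against 27.5%), in SCC25 0 of 17 were called (against 0.315%), and over all lines 2 of 17 rose (against 12.2%). These shares take promoters and other regions together and count both directions. A share over promoters alone was not counted, and whether promoters in general shifted was not tested. In SCC1 the median log2 change was 0.46 over the 17 promoters and −0.09 over all regions. The interaction was called for 4 of 17 (against 13.2%), and for 1 after removal of the GC trend and 8 after centring. Over all regions it was called for 11388, for 9762 after removal of the GC trend and for 15558 after centring. Marker promoters moved beside those of the pathway. The fibroblast marker COL1A1 rose by a log2 of 0.66 (adjusted p = 0.0382) in SCC1 and 0.40 (adjusted p = 0.0153) over all lines. In SCC6 the squamous markers KRT5 and CDH1 changed by 0.93 (adjusted p = 0.0125) and −0.60 (adjusted p = 0.0282). No other of the 5 marker promoters in the table was called with cetuximab in a line or over all lines, and the part of these changes in the pathway counts was not tested. EGFR is the target of cetuximab and a receptor of these ligands, NRG1 excepted. Its promoter rose by a log2 of 0.42 ± 0.13 (SE, adjusted p = 0.00982) in SCC6 and 0.36 ± 0.10 (SE, adjusted p = 0.0246) over all lines. In SCC1 its change was 0.61 ± 0.22 (SE, adjusted p = 0.0497), a call lost in 8 of 17 alternative settings, each cetuximab or PBS replicate 1 or 3 left out among them. The call over all lines was lost without SCC1 PBS replicate 3 (adjusted p = 0.0620). Centring ended the EGFR call in SCC6 (adjusted p = 0.173). ERBB2, the partner receptor without a ligand of its own, changed by −0.53 ± 0.19 (SE, adjusted p = 0.0287) in SCC6, and ERBB3, a neuregulin receptor, by 0.38 ± 0.12 (SE, adjusted p = 0.0403) over all lines. The ERBB2 call was lost without cetuximab replicate 2, PBS replicate 1 or PBS replicate 2 (adjusted p of 0.155, 0.160 and 0.0867), and the ERBB3 call in 12 of 28 alternative settings, 9 of which left out 1 library. In SCC1 the adaptors GRB2 and SHC1, which couple the receptor to RAS signalling, rose by 0.90 ± 0.20 (SE, adjusted p = 4.27e-04) and 0.88 ± 0.17 (SE, adjusted p = 2.79e-05). RHBDF2, which steers ADAM17 to the cell surface, rose by 0.87 ± 0.22 (SE, adjusted p = 0.00216), and ADAM10, a protease that sheds EGF and BTC, by 0.53 ± 0.19 (SE, adjusted p = 0.0489). SOCS5, counted here among the inhibitors of the receptor, rose by 0.61 ± 0.19 (SE, adjusted p = 0.0225). The SOCS5 call was lost in 6 of 17 alternative settings. The SHC1 call held in 17 of 17 alternative settings. Without SCC1 PBS replicate 1 the GRB2 call was lost (adjusted p = 0.0985). The RHBDF2 call was lost without cetuximab replicate 1, PBS replicate 1 or PBS replicate 3 (adjusted p of 0.0598, 0.0844 and 0.0606), and the ADAM10 call in 10 of 17 alternative settings, cetuximab or PBS replicate 1 or 3 left out among them. After removal of the GC trend 4 pathway promoters were called in SCC1, 2 higher and 2 lower, and after centring 5 in SCC6, all lower. Over all regions the first setting called 3183 higher and 5285 lower in SCC1, and the second 10117 higher and 16512 lower in SCC6. In SCC1 the called promoters were all higher under centring (10), quantile normalization (5) and thinning to equal reads (10). Between untreated lines 5 of 17 were called in SCC6 against SCC1 (against 61.2% of all regions), 7 in SCC25 against SCC1 (against 51.3%) and 11 in SCC25 against SCC6 (against 68.7%). Removal of the GC trend raised the first count to 15, and centring the first to 10 and the second to 15. Over all regions the calls in SCC6 against SCC1 went from 52827 to 55335 without the GC trend and to 57235 with centring. Those in SCC25 against SCC1 went from 44291 to 54264 with centring.

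Across the 17 libraries the ligand promoters followed different promoters elsewhere in the genome. The promoter region of another protein-coding gene with the most similar log2 signal, of 18194 compared, was CPEB4 for BTC (Pearson's r = 0.978), IRF2 for HBEGF (r = 0.803), EPHA1 for EREG (r = 0.912), ADGRF5 for NRG1 +909.4 kb (r = 0.924), IER5L for EGF +55.2 kb (r = 0.834) and COMMD4 for the EPGN region (r = 0.922). These are descriptions over libraries that share lines, treatments and depths.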

How the data were processed

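Open chromatin was profiled by ATAC-seq in SCC1, SCC6 and SCC25 cells given cetuximab or PBS. Per the labels and the study's methods, the authors trimmed reads with Trim Galore 0.5.0, aligned them to hg19 with Bowtie2 2.3.2, removed duplicate, mitochondrial and low-quality reads with Picard 2.18 and SAMtools 1.9, ran MACS2 on every library for broad peaks and built 1 region set from all peaks with DiffBind (versions of these last tools are not given in the sources used here). The deposited region table holds a signal per region and library, which is a whole number of reads times 1 scale factor per library (100% of values within 0.001 of a whole number, none below 1 read). The deposited peak lists give a fold enrichment over local background (a ratio) and −log10 p-values and q-values. Libraries held 2194851 to 15017130 reads in regions, and at medians of 7 to 68 a region counting error limits the low ones. SCC1 PBS replicate 2 was not analysed here. The labels do not say that replicates are separate cultures, so p-values measure only the spread between these libraries.

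Tests ran on log2(signal + 1) in limma 3.58.1 under R 4.3.3 with robust, trended empirical Bayes variances, two-sided, and with an F-test where line and treatment interact. Regions in the lowest 25% by mean were excluded, and p-values were adjusted by Benjamini-Hochberg over all others. Treatments were compared per line and, with line as a covariate, over the 3 lines together, and PBS libraries between lines. The plan named edgeR if the table held counts. As it held a scaled signal, limma was kept, and edgeR 4.0.16 and DESeq2 1.42.0 on the recovered reads were alternatives. The further alternatives were centring on the median, quantile normalization, pseudocounts of 5 and 0.5, no filter, removal of the GC trend, a replicate block, thinning to 2194851 reads, all libraries in 1 fit and leaving out each library. The fits were tested on simulated data.

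The annotation was GENCODE release 44, lifted to GRCh37, and promoter regions were those at most 1 kb from a start. Regions named were, for each gene, the promoter region of highest mean and the region of highest signal per kb, up to 3 higher and 3 lower called regions per comparison whose groups do not overlap, and the 4 smallest interaction p-values. Over all lines the condition was the same direction in each line. Such separation or shared direction was therefore fixed by the choice and adds no support. Others are said to be named after their values were seen. Members and lists were chosen with earlier results of these data known. Pathway and marker genes were read at their promoter region of highest mean. Repeated 50-base words were counted over the genome build, and minimap2 2.31-r1302 aligned the AREG window to its chromosome. Peaks counted as shared at an overlap of 1 base or more. Python 3.11.15 with numpy 2.4.6, pandas 2.3.3 and matplotlib 3.10.9 did the rest.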

Additional observations from a re-analysis of the deposited data

Results flagged for a closer look

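At 4 of the named regions the effect of cetuximab differed between the 3 lines by an F-test on the line-by-treatment terms (limma, adjusted over all tested regions). HBEGF −1.8 kb (adjusted p = 0.00349) fell in SCC1 and SCC6 with log2 changes of −1.91 and −2.36 against −0.23 in SCC25. HBEGF +23.4 kb (adjusted p = 0.00337) changed by −1.08 in SCC1 and by 0.63 in SCC6, with 0.31 in SCC25. NRG1 +116.1 kb (adjusted p = 0.0203) changed by −2.07 in SCC1, −1.63 in SCC6 and −0.52 in SCC25. NRG1 +670.9 kb (adjusted p = 0.00696) changed by −0.37 in SCC1 and 1.13 in SCC6. After thinning to equal reads the call was lost at HBEGF +23.4 kb (0.199), NRG1 +116.1 kb (0.128) and NRG1 +670.9 kb (0.145) and kept at HBEGF −1.8 kb. No group of 4 or more libraries existed, so single libraries were not screened for standing apart.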

How the results depend on the processing

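In SCC1 the number of ligand regions called went from 7 to 4 with each library centred on its median, 3 with quantile normalization, 3 without a filter on low regions, 3 with DESeq2 and 4 with reads thinned to the same number, and it ran from 1 to 9 on leaving out single libraries (1 without PBS replicate 1, 2 without PBS replicate 3, 4 without cetuximab replicate 1 and 4 without cetuximab replicate 3). A lone PBS library was there assumed to vary like the others. In SCC6 it went from 18 to 9 with thinned reads and 9 with all libraries in 1 fit, and from 11 to 21 on leaving out single libraries (11 without cetuximab replicate 2 and 11 without PBS replicate 2). In SCC25 it was 0 in all 18 alternatives. edgeR on the recovered reads called 6 ligand regions in SCC1, 17 in SCC6, 0 in SCC25 and 5 over all lines. Over all lines it went from 6 to 2 with a replicate block and from 4 to 8 on leaving out libraries, and for the interaction from 5 to 2 with thinned reads and from 4 to 6. For the PBS libraries it was 31 with centring in SCC25 against SCC1, where leaving out libraries gave 14 to 19, and leaving out libraries gave 28 to 34 in SCC6 against SCC1 and 30 to 34 in SCC25 against SCC6. The number called over all regions moved too. In SCC1 it went from 9614 to 10773 with centring, 8787 with quantile normalization, 7019 without a filter, 5676 with DESeq2 and 8019 with thinned reads. In SCC6 it went from 23774 to 15939 with thinned reads and 15139 with 1 fit. Over all lines it went from 10511 to 4271 with a replicate block, and for the interaction from 11388 to 8108 with thinned reads. In SCC25 against SCC1 it was 44291, and 54264 with centring. The cause of these changes was not tested, beyond the fewer libraries or reads of those alternatives.

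With peaks of a −log10 q of 5 or more, 7 ligand regions had a peak in SCC1, 36 in SCC6 and 10 in SCC25, and with peaks covering 50% of the region 9 in SCC1 and 22 in SCC25. Leaving out libraries gave 16 to 22, 46 to 60 and 30 to 36. Libraries of the same number did not deviate together (correlations of −0.0297 to 0.0209). With 2 or 3 libraries per group these correlations cannot show whether such libraries shared a culture or batch. The labels state no pairing. The replicate block gave 10 calls in SCC1, 19 in SCC6, 0 in SCC25, 6 for the interaction and 32, 17 and 35 between PBS lines. Over all lines it left the calls of HBEGF +1.7 kb, EGF +67.7 kb, EGF +76.3 kb and the EGFR and ERBB3 promoters above the threshold (adjusted p of 0.0717, 0.0559, 0.0695, 0.0595 and 0.129). Of 874 alternatives to 46 changes and line differences of single regions, 764 kept direction and side of the threshold, 95 lost the call, 15 gained one and 0 reversed. Of 140 alternatives to 5 interactions, which have no direction, 126 kept the call and 14 lost it.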
